A study of Mus musculus with 8 samples.

Results

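The genes of respiratory complex I were examined in cardiomyocyte (CM) RNA from mouse ventricles. Members were all genes whose annotated symbol begins with Nduf, which takes in the nuclear-encoded subunits and the assembly factors named Ndufaf. Of 40 Nduf genes with a probe on the array, 39 had a kept probe, out of 9803 genes in all, where a probe was kept if its detection p-value was under 0.05 on at least 2 of 8 arrays. The 39 comprised 32 subunits, 5 assembly factors, Ndufa4 and the pseudogene Ndufs5-ps. The rule used the symbol and detection only, and no difference between groups.

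Each sample was read on its own Illumina MouseRef-8 v2.0 BeadChip array, on which every probe is a set of beads whose fluorescence intensity reports 1 transcript. There were 2 arrays of embryonic CMs, from fetal ventricles (E15.5d), 3 arrays of hypertrophic adult CMs (ACMs) from hypertrophic hearts 7 days after an operation, and 3 arrays of normal ACMs from adult ventricles. The sample titles name the hypertrophic group TAC. The strain label reads CD1 for hypertrophic ACMs and CD1 background for the other 2 groups. No operation is named for the normal ACMs, so the operation and hypertrophy cannot be told apart, and neither can strain label and hypertrophy. The labels do not say if replicates are different mice, so the p-values reflect the spread among these arrays alone, and that spread may be technical.

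Complex I takes electrons from NADH, passes them along a chain of iron-sulphur clusters to ubiquinone, and pumps protons across the inner mitochondrial membrane. Its peripheral arm in the matrix holds the NADH and ubiquinone sites, and its membrane arm holds the proton channels, whose core proteins are encoded by mitochondrial DNA and are not Nduf genes. The core subunits are shared with bacteria, accessory subunits surround them, and assembly factors help to build the complex but are absent from the finished enzyme. The adult heart depends on oxidative phosphorylation for most of its ATP.

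Embryonic CMs had lower levels of complex I genes than normal ACMs. At an adjusted p under 0.05 (limma, Benjamini-Hochberg over all 9803 genes), 31 of 39 members were lower and 0 were higher, against 22.7% of all genes lower and 26.2% higher. At an unadjusted p under 0.05, 33 were lower, against 25.6% of all genes, and 0 higher. The log2 difference was below 0 for all 39, against 49.5% of all genes, and ranged from -2.45 to -0.18, with a median of -0.75 beside 0.01 over all genes. All embryonic arrays lay below all normal ACM arrays for 36 members, against 31.3% of all genes, and 14 members passed the test with a fall of more than 1 on the log2 scale, against 14% of all genes. The median member stood at -0.78 and -0.79 on the embryonic arrays, at -0.12, -0.15 and -0.18 on the hypertrophic ACM arrays and at 0.07, -0.06 and -0.01 on the normal ACM arrays, as log2 deviations from the normal ACM mean. Every embryonic array was thus below every adult array in this measure.

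Hypertrophic ACMs differed little from normal ACMs in these genes. Of 39 members, 1 passed the test as lower (Ndufb2) and 0 as higher, against 1.83% of all genes lower and 3.84% higher. At an unadjusted p under 0.05, 2 members were lower, against 10% of all genes, and 0 were higher. The log2 difference was below 0 for 31 of 39, against 52.6% of all genes, and its median was -0.19 beside -0.02 over all genes, with -0.11 without normal ACM array 1 and -0.12 without hypertrophic ACM array 3. For 12 members the hypertrophic arrays all lay below the normal ACM arrays, against 13% of all genes. The 95% interval of the difference lay within 1 log2 unit of 0 for 37 of 39 members. The SE of a difference ranged from 0.13 to 0.31 log2 units, so that the number of arrays limits the precision.

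Embryonic CMs were also lower than hypertrophic ACMs, with 26 of 39 members lower and 0 higher, against 19.7% of all genes lower and 23.8% higher, and with 30 lower at an unadjusted p under 0.05, against 23% of all genes, and 0 higher. All 39 differences were below 0, against 49% of all genes, and their median was -0.72 beside 0.02 over all genes. The embryonic arrays lay below all hypertrophic ACM arrays for 37 members, against 30.9% of all genes. This comparison and the one with normal ACMs share the embryonic arrays.

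**Figure D1:**
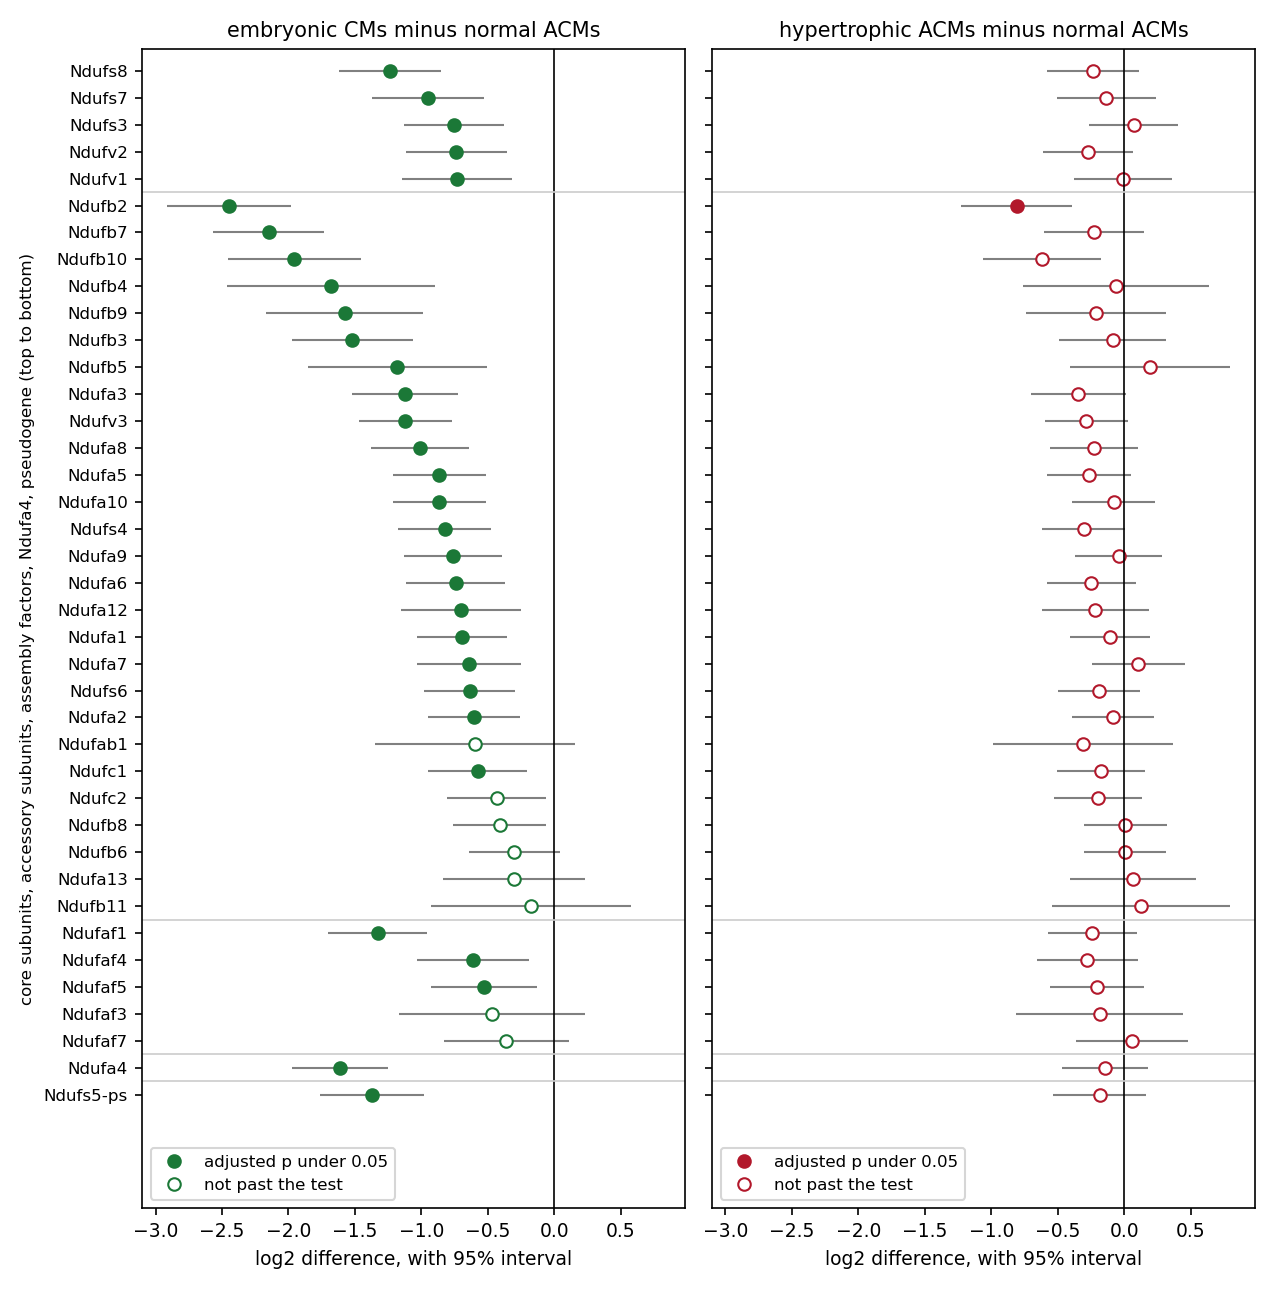
Log2 difference of each of 39 complex I genes (points) with its 95% interval (lines), for embryonic CMs minus normal ACMs on the left and hypertrophic ACMs minus normal ACMs on the right. Filled points passed an adjusted p under 0.05, and genes are ordered within core subunits, accessory subunits, assembly factors, Ndufa4 and the pseudogene. All 39 points on the left lie below 0 and 31 are filled, while on the right only Ndufb2 is filled.

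The labelled cell type was checked against marker lists. Of 8 cardiomyocyte markers with a kept probe, 5 (Myh6, Pln, Ryr2, Tnni3 and Ttn) were lower in embryonic CMs than in normal ACMs. Actn2 (log2 difference 0.03), Myl2 (-0.16) and Tnnc1 (-0.20) did not pass. The summed intensity of the 8 was 86040 to 101300 on embryonic arrays, 132100 to 137900 on hypertrophic ACM arrays and 126400 to 142000 on normal ACM arrays. All 4 erythroid markers were higher in embryonic CMs, with sums of 33670 to 33760 on embryonic arrays, 170.7 to 3432 on hypertrophic ACM arrays and 163.9 to 1323 on normal ACM arrays. Endothelial markers were higher in embryonic CMs for 8 of 10, with sums of 8213 to 10260 on embryonic, 2951 to 5073 on hypertrophic ACM and 1357 to 4170 on normal ACM arrays, and 1 of 10 (Plvap) was higher in hypertrophic ACMs. Fibroblast markers were higher for 5 of 8 and lower for 1 (Gsn, log2 difference -1.93, not detected on either embryonic array) in embryonic CMs and higher for 6 of 8 in hypertrophic ACMs, with sums of 4745 to 5381 on embryonic, 5719 to 9220 on hypertrophic ACM and 1487 to 3158 on normal ACM arrays. Of 6 leukocyte markers, 0 passed in either comparison with normal ACMs at the adjusted threshold, with 1 lower in embryonic CMs and 2 higher in hypertrophic ACMs at an unadjusted p under 0.05 (limma), and sums of 597.4 to 787.7 on embryonic, 1331 to 1901 on hypertrophic ACM and 325.7 to 2645 on normal ACM arrays. Of 3 smooth muscle markers, Acta2 was higher and Myh11 lower in embryonic CMs, and Acta2 was lower in hypertrophic ACMs. Sums were 28130 to 29020 on embryonic, 3994 to 6187 on hypertrophic ACM and 7951 to 13000 on normal ACM arrays. These sums were almost all Acta2, at log2 intensities of 14.82 and 14.78 in embryonic CMs beside 4.77 to 5.18 for Myh11 and Tagln. Ddr2, Postn, Ptprc, Itgam and Cnn1 had no kept probe. In such bulk RNA, fewer cells of a type and less RNA per cell cannot be told apart, and the part of other cells in the complex I differences was not tested.

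The peripheral arm fell throughout. All 14 of its measured subunits were lower in embryonic CMs than in normal ACMs, with a median log2 difference of -0.75 and a range of -1.24 to -0.60. In hypertrophic ACMs, 0 of the 14 passed at the adjusted threshold or at an unadjusted p under 0.05 (limma), with a median of -0.20.

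Within that arm, the core subunits carry the electron path. Ndufs8, which holds iron-sulphur clusters close to the quinone site, had log2 intensities of 11.90 and 12.10 in embryonic CMs, 13.11, 13.04 and 12.83 in hypertrophic ACMs and 13.32, 13.26 and 13.12 in normal ACMs. The 3 groups did not overlap, and the embryonic arrays stood well below both adult groups. The embryonic difference from normal ACMs was -1.24 ± 0.17 (SE, adjusted p = 0.000311, limma), a 2.36-fold lower level.

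Ndufs7, which holds the last cluster before ubiquinone, had 13.04 and 13.38 in embryonic CMs, 13.94, 14.03 and 14.10 in hypertrophic ACMs and 14.24, 14.28 and 13.94 in normal ACMs. Embryonic arrays were lowest and the adult groups overlapped. Relative to normal ACMs, the embryonic difference was -0.95 ± 0.19 (SE, adjusted p = 0.00237, limma). Ndufs3, a subunit of the quinone-binding module, had 12.20 and 12.12 in embryonic CMs, 12.99, 12.98 and 12.99 in hypertrophic ACMs and 12.98, 12.71 and 13.05 in normal ACMs. It fell by 0.75 in embryonic CMs (adjusted p = 0.00464, limma), with both adult groups overlapping.

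Ndufv1, which binds NADH and the flavin cofactor, had 12.71 and 12.91 in embryonic CMs, 13.80, 13.37 and 13.44 in hypertrophic ACMs and 13.53, 13.56 and 13.55 in normal ACMs. Its embryonic difference from normal ACMs was -0.73 ± 0.18 (SE, adjusted p = 0.0086, limma), and without embryonic array 1 it was -0.66 and the call was lost (adjusted p = 0.0712, limma). Its partner Ndufv2, an iron-sulphur protein of the NADH module, had 13.11 and 13.00 in embryonic CMs, 13.56, 13.40 and 13.59 in hypertrophic ACMs and 13.91, 13.84 and 13.62 in normal ACMs. Here the 3 groups did not overlap, with embryonic CMs lowest and normal ACMs highest, and the embryonic difference from normal ACMs was -0.74 ± 0.17 (SE, adjusted p = 0.00544, limma). The only probe for Ndufs1, the largest core subunit of the NADH module, was not above background on any array. Ndufs5, Ndufa11, Ndufb1, Ndufaf2, Ndufaf6, Ndufaf8 and Ndufa4l2 were not analysed here.

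The accessory subunits of the peripheral arm fell by similar amounts. Ndufs4, a subunit mutated in Leigh syndrome that stabilizes the NADH module, had 12.63 on both embryonic arrays, 13.24, 13.13 and 13.07 in hypertrophic ACMs and 13.49, 13.36 and 13.51 in normal ACMs, again with no overlap among the 3 groups. Its embryonic difference from normal ACMs was -0.82 ± 0.16 (SE, adjusted p = 0.00194, limma). The same difference was -1.12 for Ndufv3, -0.87 for Ndufa5, -0.76 for Ndufa9, -0.74 for Ndufa6, -0.70 for Ndufa12, -0.64 for Ndufa7, -0.64 for Ndufs6 and -0.60 for Ndufa2, all past the test. Ndufa7 lost the call without either embryonic array (adjusted p = 0.0837 without array 1 and 0.0541 without array 2, limma) and with median scaling (-0.45, adjusted p = 0.103, limma), and Ndufa12 and Ndufa2 lost it without embryonic array 2 (adjusted p = 0.145 and 0.0728, limma). Ndufs6, a zinc-binding subunit, was the brightest member on every array, at 21852.7 and 21303.8 raw intensity units in embryonic CMs, 26700.2, 27024.2 and 27575.9 in hypertrophic ACMs and 30461.9, 32377.4 and 31224.1 in normal ACMs, where the brightest probes of the arrays reached 33979.5 to 39041.1.

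Promoter windows of members of both arms and of assembly factors, 250 bases before to 50 bases after the start site, were read from RefSeq (GRCm38.p6). Windows were counted for 36 of 39 members, 28 of them among those lower in embryonic CMs. The core of the YY1 motif, AAGATGGCG, searched on both strands, lay in 5 of 36 members (13.9%), against 1.64% of 27025 genes. Those 27025 are the genes with a window and are not limited to genes detected here. Of these 5, Ndufa9, Ndufs4, Ndufs6 and Ndufs7 are peripheral arm subunits and Ndufc1 lies in the membrane arm, and the matches begin at the 23rd to the 36th transcribed base. The letters contain an ATG. A match is a description of letters and not a measured binding site, and no window held more than 1 of the 4 kinds of motif searched. Windows of the core subunit Ndufs7 (chr10:80249199-80249498, + strand) and of Ndufs4 (chr13:114388045-114388344, - strand) are shown 5′ to 3′ as examples, with the match in capitals.
Ndufs7: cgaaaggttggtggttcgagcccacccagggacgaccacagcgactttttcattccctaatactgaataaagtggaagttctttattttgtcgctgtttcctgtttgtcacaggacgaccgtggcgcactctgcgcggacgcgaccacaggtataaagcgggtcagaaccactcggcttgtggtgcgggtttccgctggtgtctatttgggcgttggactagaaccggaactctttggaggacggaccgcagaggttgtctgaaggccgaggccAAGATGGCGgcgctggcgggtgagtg
Ndufs4: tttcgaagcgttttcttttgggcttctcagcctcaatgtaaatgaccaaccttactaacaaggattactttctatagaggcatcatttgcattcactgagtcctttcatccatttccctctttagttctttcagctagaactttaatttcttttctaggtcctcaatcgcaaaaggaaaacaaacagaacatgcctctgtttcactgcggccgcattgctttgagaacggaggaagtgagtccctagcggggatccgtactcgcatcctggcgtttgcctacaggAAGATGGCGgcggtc

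A motif of GABP, CCGGAAGT, lay in 1 of 36 members (Ndufs3, 2.78%), against 4.31% of the 27025 genes with a window. The remaining motifs, of NRF1 and of the estrogen-related receptors (ERR), are given with the genes that hold them.

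The membrane arm spanned a wider range. Of 17 measured subunits, 12 were lower in embryonic CMs than in normal ACMs and 5 did not pass, with a median log2 difference of -1.01 and a range of -2.45 to -0.18. Of these 5, Ndufb6, Ndufb8 and Ndufc2 passed under other settings, so that 29 of the 32 subunits of both arms were lower with no background correction, against 26 here. The Ndufb family held both ends of this range. Of 10 Ndufb genes, 7 were lower, with a family median of -1.55, beside -0.74 for 11 Ndufa genes (10 lower), -0.82 for 5 Ndufs genes (5 lower) and -0.74 for 3 Ndufv genes (3 lower). The families also differed in probe brightness. Mean log2 intensity in normal ACMs was 8.30 to 12.12 for the 7 lower Ndufb genes and 12.72 to 14.41 for the 11 Ndufa genes. Ndufb6 (13.95) and Ndufb8 (14.15), which did not pass, were as bright as Ndufa genes, and Ndufb11 (5.28) was near background. The part of brightness in the family and arm medians was not tested. In hypertrophic ACMs, 1 of the 17 passed, with a median of -0.11.

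Ndufb2, an accessory subunit of the membrane arm, showed the largest fall of the 39 in both comparisons with normal ACMs. It had 7.70 and 7.71 in embryonic CMs, 9.46, 9.45 and 9.13 in hypertrophic ACMs and 10.41, 10.21 and 9.85 in normal ACMs. The 3 groups did not overlap, with hypertrophic ACMs between embryonic CMs and normal ACMs. The embryonic difference from normal ACMs was -2.45 ± 0.21 (SE, adjusted p = 1.77e-05, limma), a 5.45-fold lower level.

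The hypertrophic difference of Ndufb2 from normal ACMs was -0.81 ± 0.18 (SE, 95% interval -1.23 to -0.39, adjusted p = 0.0392, limma), a 1.75-fold lower level. The hypertrophic call was kept without normal ACM array 3 and was lost without embryonic array 1 or 2, hypertrophic ACM array 1, 2 or 3, or normal ACM array 1 or 2, with adjusted p between 0.0653 and 0.138 (limma) and a difference between -0.86 and -0.68. The embryonic difference from hypertrophic ACMs was -1.64 ± 0.21 (SE, adjusted p = 0.000236, limma). The gene lies at chr6:39592565-39599843, and its promoter window (chr6:39592315-39592614, + strand), shown because this gene moved most, held none of the motifs searched.
Ndufb2: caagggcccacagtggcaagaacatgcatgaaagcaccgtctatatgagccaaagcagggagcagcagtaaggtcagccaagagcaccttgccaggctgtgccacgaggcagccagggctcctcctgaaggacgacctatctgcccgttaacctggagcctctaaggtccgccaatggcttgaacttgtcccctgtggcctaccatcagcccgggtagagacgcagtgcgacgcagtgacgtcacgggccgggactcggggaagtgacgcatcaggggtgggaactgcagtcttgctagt

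Ndufb7 and Ndufb10 are small subunits on the intermembrane-space side of the membrane arm that are held by disulphide bonds. Ndufb7 (chr8:83566758-83571623) had 8.64 and 9.01 in embryonic CMs, 10.69, 10.75 and 10.79 in hypertrophic ACMs and 11.00, 10.78 and 11.13 in normal ACMs. Its embryonic arrays stood far below all adult arrays, while the adult groups overlapped. Relative to normal ACMs, the embryonic difference was -2.15 ± 0.18 (SE, adjusted p = 2e-05, limma), a 4.43-fold lower level.

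Ndufb10 (chr17:24722060-24724423) had 8.59 and 8.26 in embryonic CMs, 10.07, 9.63 and 9.57 in hypertrophic ACMs and 10.14, 10.52 and 10.48 in normal ACMs. The 3 groups did not overlap, although the highest hypertrophic array was close to the lowest normal one. The embryonic difference from normal ACMs was -1.95 ± 0.22 (SE, adjusted p = 9.5e-05, limma), a 3.88-fold lower level. The hypertrophic difference from normal ACMs was -0.62 ± 0.20 (SE, 95% interval -1.06 to -0.17) and did not pass (adjusted p = 0.11, limma).

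Ndufb4, another accessory membrane-arm subunit, had 6.84 and 6.41 in embryonic CMs, 8.12, 8.34 and 8.25 in hypertrophic ACMs and 9.02, 8.25 and 7.64 in normal ACMs. The normal ACM arrays spread widely around the hypertrophic ones, and the embryonic arrays were below both. Relative to normal ACMs, the embryonic difference was -1.68 ± 0.35 (SE, adjusted p = 0.0032, limma), and with each array scaled to its median it was -0.77 and did not pass (adjusted p = 0.122, limma). An ERR motif, TNAAGGTCA, lay in 1 of 36 members (2.78%), against 1.43% of the 27025 genes with a window. That member was Ndufb4, whose window (chr16:37654319-37654618, - strand) is shown with the match in capitals.
Ndufb4: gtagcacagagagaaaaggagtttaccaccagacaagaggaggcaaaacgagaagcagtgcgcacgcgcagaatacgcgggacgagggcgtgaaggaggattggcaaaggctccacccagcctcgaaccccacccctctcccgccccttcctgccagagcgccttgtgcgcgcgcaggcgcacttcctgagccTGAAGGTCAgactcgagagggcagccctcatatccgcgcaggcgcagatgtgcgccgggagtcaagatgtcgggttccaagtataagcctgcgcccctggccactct

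The remaining Ndufb members split. Ndufb9, Ndufb3 and Ndufb5 were lower in embryonic CMs than in normal ACMs, with log2 differences of -1.58 for Ndufb9, -1.52 for Ndufb3 and -1.18 for Ndufb5. Ndufb5 had 10.65 and 10.26 in embryonic CMs, 11.55, 12.13 and 11.80 in hypertrophic ACMs and 12.12, 11.13 and 11.65 in normal ACMs. Its adult groups overlapped, with a hypertrophic difference of 0.19 (95% interval -0.41 to 0.79), and without embryonic array 2 the embryonic difference was -1.01 and did not pass (adjusted p = 0.0795, limma). Scaling each array to its median also ended that call, at -0.72 (adjusted p = 0.0756, limma).

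Ndufb6, Ndufb8 and Ndufb11 did not pass in embryonic CMs. Ndufb6 had 13.59 and 13.71 in embryonic CMs, 13.97, 13.97 and 13.93 in hypertrophic ACMs and 13.97, 13.88 and 14.00 in normal ACMs. All embryonic arrays were lower, but the difference from normal ACMs was only -0.30 ± 0.15 (SE, adjusted p = 0.131, limma). It passed under 7 of 20 alternatives, among them the authors' normalized values, where the same probe gave -0.30 (adjusted p = 0.00619, limma). Ndufb8 differed by -0.41 (95% interval -0.76 to -0.06, adjusted p = 0.0523, limma), and it passed under 9 of 20 alternatives, with adjusted p between 0.00362 and 0.0452 (limma).

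Ndufb11, an X-linked subunit close to background, had 4.95 and 5.26 in embryonic CMs, 5.64, 5.31 and 5.28 in hypertrophic ACMs and 5.95, 4.66 and 5.25 in normal ACMs. It was detected on 7 of 8 arrays, and its groups overlapped, with an embryonic difference from normal ACMs of -0.18 (95% interval -0.93 to 0.57), which was 0.16 without normal ACM array 1 and 0.38 with each array scaled to its median. The other 38 members were detected on all 8 arrays.

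Among the other membrane-arm subunits, 5 were lower in embryonic CMs than in normal ACMs, with log2 differences of -1.12 for Ndufa3, -1.01 for Ndufa8, -0.87 for Ndufa10, -0.69 for Ndufa1 and -0.58 for Ndufc1. Ndufc1 lost the call without either embryonic array (adjusted p = 0.0937 without array 1 and 0.0675 without array 2, limma). Ndufa13, also known as GRIM-19, had 13.96 and 13.94 in embryonic CMs, 14.11, 14.34 and 14.50 in hypertrophic ACMs and 13.97, 14.69 and 14.10 in normal ACMs. The lowest normal ACM array nearly met the embryonic ones, and the difference of -0.30 (95% interval -0.84 to 0.23) did not pass. Ndufc2 differed by -0.43 (95% interval -0.81 to -0.06) and did not pass (adjusted p = 0.0548, limma), but it passed under 9 of 20 alternatives, with adjusted p between 0.0102 and 0.0482 (limma).

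Ndufa3 had 12.95 and 13.26 in embryonic CMs, 14.03, 13.74 and 13.88 in hypertrophic ACMs and 14.22, 14.14 and 14.32 in normal ACMs. The groups did not overlap, but the hypertrophic difference of -0.35 (95% interval -0.70 to 0.01) did not pass (adjusted p = 0.254, limma). Ndufa7 had 12.03 and 12.12 in embryonic CMs, 12.82, 12.62 and 13.02 in hypertrophic ACMs and 12.77, 12.66 and 12.71 in normal ACMs, and the adult groups overlapped with a difference of 0.11 (95% interval -0.25 to 0.46).

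Ndufab1, the mitochondrial acyl carrier protein, which also serves lipoate and fatty acid synthesis, had 5.30 and 5.08 in embryonic CMs, 5.76, 5.76 and 4.89 in hypertrophic ACMs and 6.32, 5.41 and 5.61 in normal ACMs. The embryonic arrays were below the normal ACM arrays but not below all hypertrophic ones. Its difference from normal ACMs was -0.60 (95% interval -1.35 to 0.16) in embryonic CMs and -0.31 (95% interval -0.99 to 0.36) in hypertrophic ACMs, and neither passed. With each array scaled to its median the embryonic difference was 0.12.

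**Figure D2:**
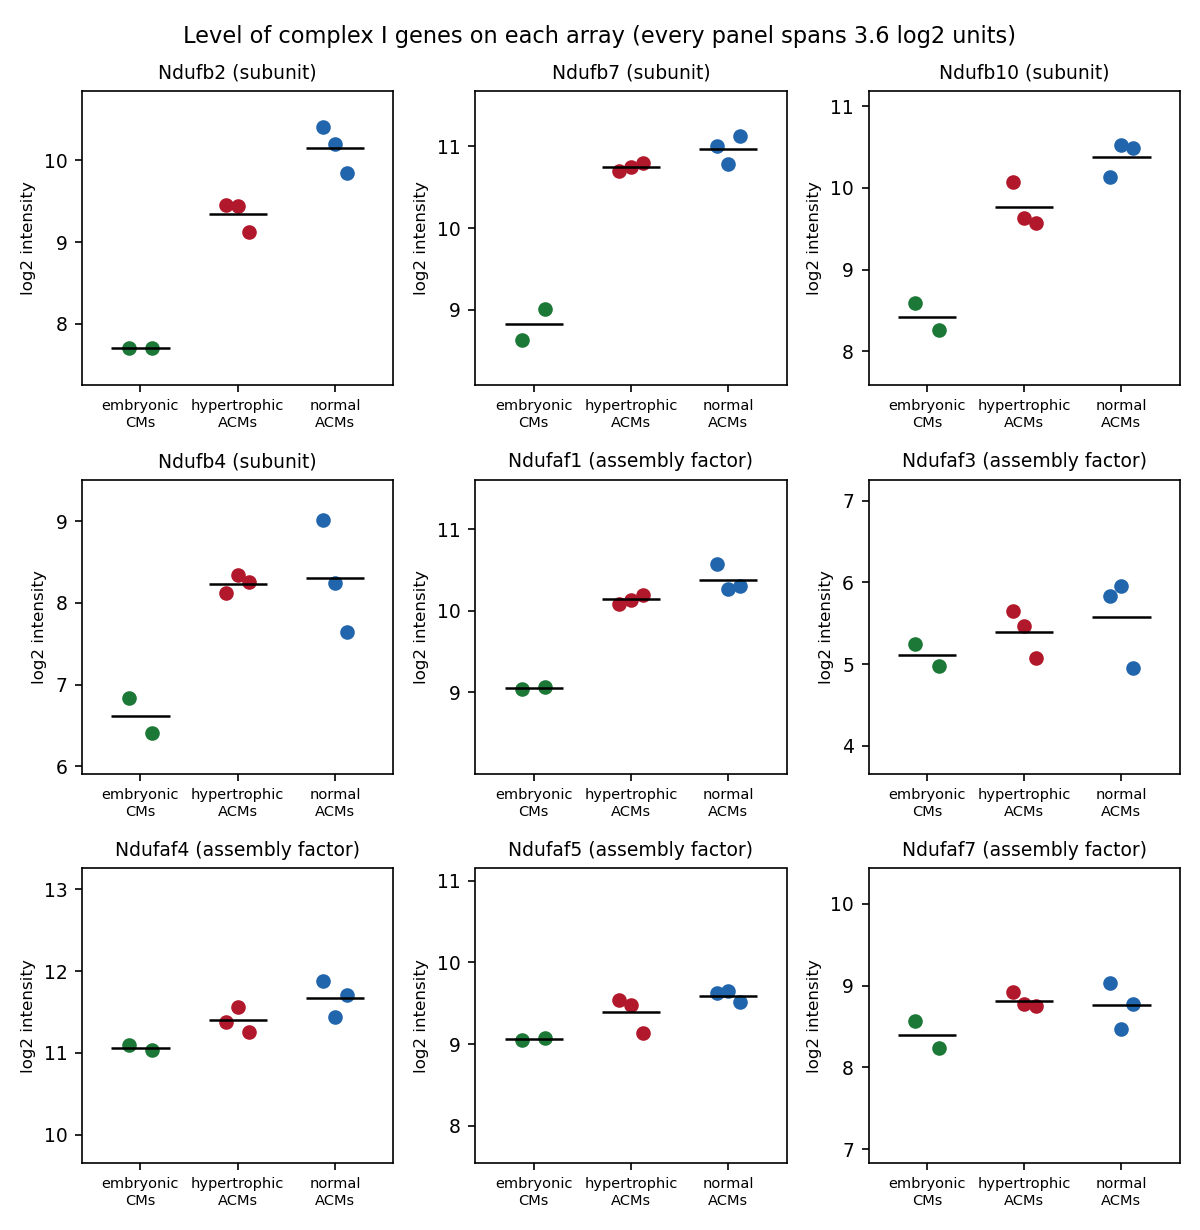
Normalized log2 intensity of the 4 subunits with the largest fall in embryonic CMs (Ndufb2, Ndufb7, Ndufb10 and Ndufb4) and of the 5 assembly factors on each array, with embryonic CMs, hypertrophic ACMs and normal ACMs from left to right. Points are arrays and lines are group means, and every panel spans the same number of log2 units. The embryonic points of the 4 subunits and of Ndufaf1 lie well below all adult points, while those of Ndufaf3 and Ndufaf7 overlap with normal ACM points.

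The assembly factors were read apart from the subunits. In embryonic CMs against normal ACMs, 3 of 5 were lower (Ndufaf1, Ndufaf4 and Ndufaf5), with a median log2 difference of -0.53, beside 26 of 32 subunits and a median of -0.76. Core subunits were lower for 5 of 5 (median -0.75) and accessory subunits for 21 of 27 (median -0.76). The median of subunits minus that of assembly factors was -0.23 against normal ACMs and -0.39 against hypertrophic ACMs, where 23 of 32 subunits and 1 of 5 assembly factors were lower. In hypertrophic against normal ACMs the medians were -0.18 for subunits and -0.21 for assembly factors, but without hypertrophic ACM array 3 they were -0.13 for subunits and -0.084 for assembly factors, and 0 assembly factors passed at the adjusted threshold or at an unadjusted p under 0.05 (limma). These medians were not tested against each other, since members are not replicates. The classes also differed in probe brightness. Mean log2 intensity in normal ACMs was 5.58 (Ndufaf3) to 11.67 (Ndufaf4) for assembly factors and 12.92 to 14.16 for core subunits. Over all subunits it was 5.28 (Ndufb11) to 14.92 (Ndufs6). The part of brightness in the class medians was not tested. With each array scaled to its median, the assembly factors' embryonic median turned to 0.14 against normal ACMs, where the median over all genes was 0.52, and 1 of 5 was lower.

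Ndufaf1 had the largest embryonic difference of the 5. It belongs to the assembly complex that builds part of the membrane arm together with Ecsit, Acad9 and Tmem126b. It had 9.04 and 9.06 in embryonic CMs, 10.09, 10.13 and 10.19 in hypertrophic ACMs and 10.57, 10.27 and 10.30 in normal ACMs. The 3 groups did not overlap, and the embryonic arrays were about 1 log2 unit below the lowest adult array. The embryonic difference was -1.33 ± 0.17 from normal ACMs (SE, adjusted p = 0.000173, limma) and -1.09 ± 0.17 from hypertrophic ACMs (SE, adjusted p = 0.000704, limma).

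Ndufaf4, which acts with Ndufaf3 in the early quinone-binding module, had 11.09 and 11.03 in embryonic CMs, 11.37, 11.56 and 11.26 in hypertrophic ACMs and 11.88, 11.44 and 11.71 in normal ACMs. Embryonic arrays were lowest after normalization. Raw intensities overlapped, at 3616.9 and 2748.2 in embryonic CMs and 2169 to 3462.5 on adult arrays. The adult groups overlapped, and the normalized embryonic difference from normal ACMs was -0.61 ± 0.19 (SE, adjusted p = 0.0228, limma). Without embryonic array 1 or 2 or normal ACM array 1 or 3 the call was lost, with adjusted p between 0.0564 and 0.111 (limma), and median scaling also ended it at -0.24 (adjusted p = 0.373, limma).

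Ndufaf3 had 5.24 and 4.98 in embryonic CMs, 5.66, 5.47 and 5.07 in hypertrophic ACMs and 5.83, 5.96 and 4.96 in normal ACMs. Normal ACM array 3 was as low as the embryonic arrays, so the groups overlapped, and the difference of -0.47 (95% interval -1.17 to 0.23) did not pass. Without normal ACM array 3 it was -0.80 and passed (adjusted p = 0.0266, limma), and with median scaling it was 0.14.

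Ndufaf5, which hydroxylates an arginine of Ndufs7, had 9.05 and 9.08 in embryonic CMs, 9.55, 9.48 and 9.14 in hypertrophic ACMs and 9.63, 9.64 and 9.51 in normal ACMs. After normalization the embryonic arrays lay below all adult ones by a small margin. Before it they lay above all adult ones, at raw intensities of 1053.6 and 882.3 beside 551.8 to 814.5. The normalized embryonic difference from normal ACMs was -0.53 ± 0.18 (SE, adjusted p = 0.0329, limma). Leaving out any 1 embryonic or normal ACM array ended the call (adjusted p between 0.0506 and 0.135, limma), and median scaling turned the difference to 0.21 (adjusted p = 0.43, limma).

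Ndufaf7, a methyltransferase of the mitochondrial matrix, had 8.57 and 8.23 in embryonic CMs, 8.92, 8.77 and 8.76 in hypertrophic ACMs and 9.03, 8.46 and 8.78 in normal ACMs. After normalization the embryonic and normal ACM arrays overlapped. Before it the embryonic arrays lay above all adult ones, at raw intensities of 798.3 and 544.8 beside 351.9 to 459.3. The normalized difference of -0.36 (95% interval -0.83 to 0.11) did not pass, with 0.49 under median scaling.

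The core of the NRF1 motif, GCGCATGCG, searched on both strands, lay in the promoter windows of 2 of 5 assembly factors (Ndufaf4 and Ndufaf5). It also lay in that of 1 of 30 subunits with a window (Ndufa8). This made 3 of 36 members (8.33%), against 1.95% of the 27025 genes with a window. In both assembly factors it matched on either strand, 1 base apart. Both windows are shown for that reason, with the matched bases in capitals, with Ndufaf4 at chr4:24897833-24898132 (+ strand) and Ndufaf5 at chr2:140170396-140170695 (+ strand).
Ndufaf4: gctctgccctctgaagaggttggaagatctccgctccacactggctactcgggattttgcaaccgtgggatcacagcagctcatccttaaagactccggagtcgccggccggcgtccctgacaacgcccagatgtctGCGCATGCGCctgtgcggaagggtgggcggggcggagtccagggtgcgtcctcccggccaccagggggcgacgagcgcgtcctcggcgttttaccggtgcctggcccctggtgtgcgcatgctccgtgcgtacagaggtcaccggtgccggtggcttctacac
Ndufaf5: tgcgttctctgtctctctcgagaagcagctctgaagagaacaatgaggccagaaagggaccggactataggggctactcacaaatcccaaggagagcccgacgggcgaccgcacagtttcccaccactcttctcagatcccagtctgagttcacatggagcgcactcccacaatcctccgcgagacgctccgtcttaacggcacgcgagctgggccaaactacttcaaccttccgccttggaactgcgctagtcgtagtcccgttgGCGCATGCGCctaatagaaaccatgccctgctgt

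The last 2 members are not complex I subunits or assembly factors in current usage. Ndufa4, now placed with complex IV, had 12.78 and 12.98 in embryonic CMs, 14.45, 14.31 and 14.30 in hypertrophic ACMs and 14.49, 14.44 and 14.56 in normal ACMs. Embryonic arrays were far below the adult ones, the adult groups overlapped, and the embryonic difference from normal ACMs was -1.61 ± 0.16 (SE, adjusted p = 4.57e-05, limma), a 3.06-fold lower level. Ndufs5-ps, annotated as a pseudogene, had 12.21 and 12.23 in embryonic CMs, 13.42, 13.38 and 13.44 in hypertrophic ACMs and 13.81, 13.39 and 13.59 in normal ACMs. The embryonic difference from normal ACMs was -1.37 ± 0.17 (SE, adjusted p = 0.000186, limma), and its probe may also read the parent gene Ndufs5, so the source of the signal is uncertain.

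Where a gene had several kept probes, the brightest one stood for it, and the others gave a second reading of the same gene. In 8 such genes, 8 of 11 other probes showed a larger embryonic fall than the brightest probe, and 9 of 11 were lower at an adjusted p under 0.05 (limma over all kept probes). Ndufb6 changed its call. Its brightest probe gave -0.30 ± 0.16 (SE, adjusted p = 0.152, limma), while its other probe read 7.38 and 7.27 in embryonic CMs, 9.10, 8.65 and 8.47 in hypertrophic ACMs and 9.23, 8.67 and 9.08 in normal ACMs and gave -1.67 ± 0.24 (SE, adjusted p = 0.000439, limma). That probe separated the embryonic arrays clearly from both adult groups.

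For Ndufa5 the brightest probe gave -0.87 and the other -1.71, and for Ndufa8 they gave -1.01 and -1.49. Ndufv3 had 3 kept probes, of which 2 gave -1.12 and -1.06 and a dim further one gave 0.31 ± 0.35 (SE, adjusted p = 0.505, limma). That dim probe read 5.99 and 5.34 in embryonic CMs, 5.56, 4.88 and 4.98 in hypertrophic ACMs and 5.90, 4.80 and 5.36 in normal ACMs, so that its groups overlapped. With the dimmest probe detected on all arrays in place of the brightest, an alternative chosen after the values were seen, 32 members were lower in embryonic CMs than in normal ACMs, with a median of -0.87.

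**Figure D3:**
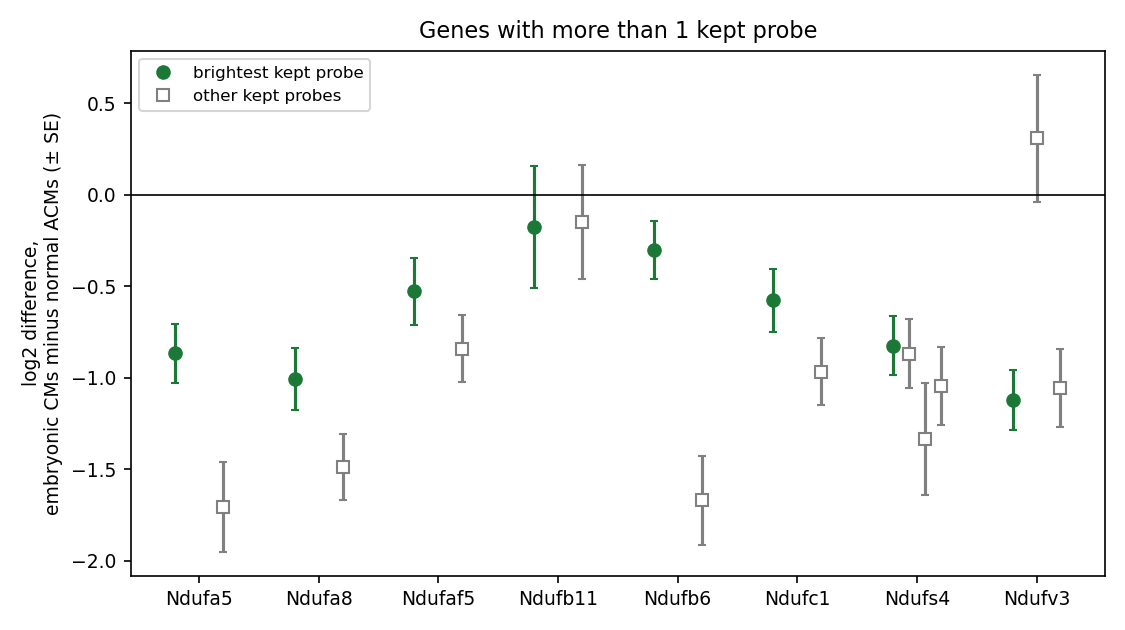
Log2 difference of embryonic CMs minus normal ACMs, with its SE, for each kept probe of the 8 genes with more than 1 kept probe. Filled circles are the brightest probe of a gene and open squares the others. The open squares of Ndufa5, Ndufa8 and Ndufb6 lie well below the filled circle, and 1 probe of Ndufv3 lies above 0.

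Complex I genes were read beside the other parts of oxidative phosphorylation. Complexes II to V together had 23 of 38 genes lower and 2 higher in embryonic CMs against normal ACMs, with a median log2 difference of -0.54, beside 31 of 39 lower, 0 higher and -0.75 for the Nduf genes. Complex II had 3 of 3 lower, complex III 4 of 7, complex IV 6 of 13 and ATP synthase 10 of 15. The 2 higher genes were Cox6a1 (1.90) and Cox8a (1.70), complex IV isoforms found in most tissues, while the heart and muscle isoforms Cox7a1 (-2.12), Cox8b (-1.91) and Cox6a2 (-1.19) were lower. The other 5 of 13 complex IV genes did not pass, among them Cox7a2 (-0.20, adjusted p = 0.464, limma). Among the Nduf genes there was no member past the test in the higher direction. In hypertrophic ACMs 0 of 38 passed at the adjusted threshold in either direction (limma), with 2 lower and 0 higher at an unadjusted p under 0.05.

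Complex I assembly genes without the Nduf name were lower for 5 of 9 in embryonic CMs against normal ACMs, with a median of -0.64. Ecsit, a partner of Ndufaf1, had 7.97 and 8.46 in embryonic CMs, 9.86, 10.01 and 10.21 in hypertrophic ACMs and 10.52, 10.47 and 10.57 in normal ACMs. The 3 groups did not overlap, and the embryonic difference from normal ACMs was -2.30 ± 0.20 (SE, adjusted p = 1.95e-05, limma). Tmem186 differed by -1.82 and Tmem70 by -1.43, both past the test, whereas Acad9, another partner of Ndufaf1, differed by -0.09 (adjusted p = 0.841, limma). Nubpl had no kept probe. Without embryonic array 1, 18 of these assembly and complex II to V genes were lower in embryonic CMs, and without embryonic array 2 there were 15, against 28 of 47 with all arrays.

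Of the regulators of mitochondrial genes, 8 were measured on the same arrays. In embryonic CMs against normal ACMs, Ppara (-2.12), Esrrb (-1.95), Esrra (-1.50) and Ppargc1b (-0.80) were lower and Nrf1, whose product binds the NRF1 motif, was higher (1.46), while Ppargc1a (-0.04), Gabpa (-0.19) and Tfam (-0.51) did not pass. Esrrg had no kept probe. In hypertrophic ACMs, Ppara was lower than in normal ACMs (-0.93 ± 0.18, SE, adjusted p = 0.0211, limma), and the other 7 measured regulators did not pass.

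**Figure D4:**
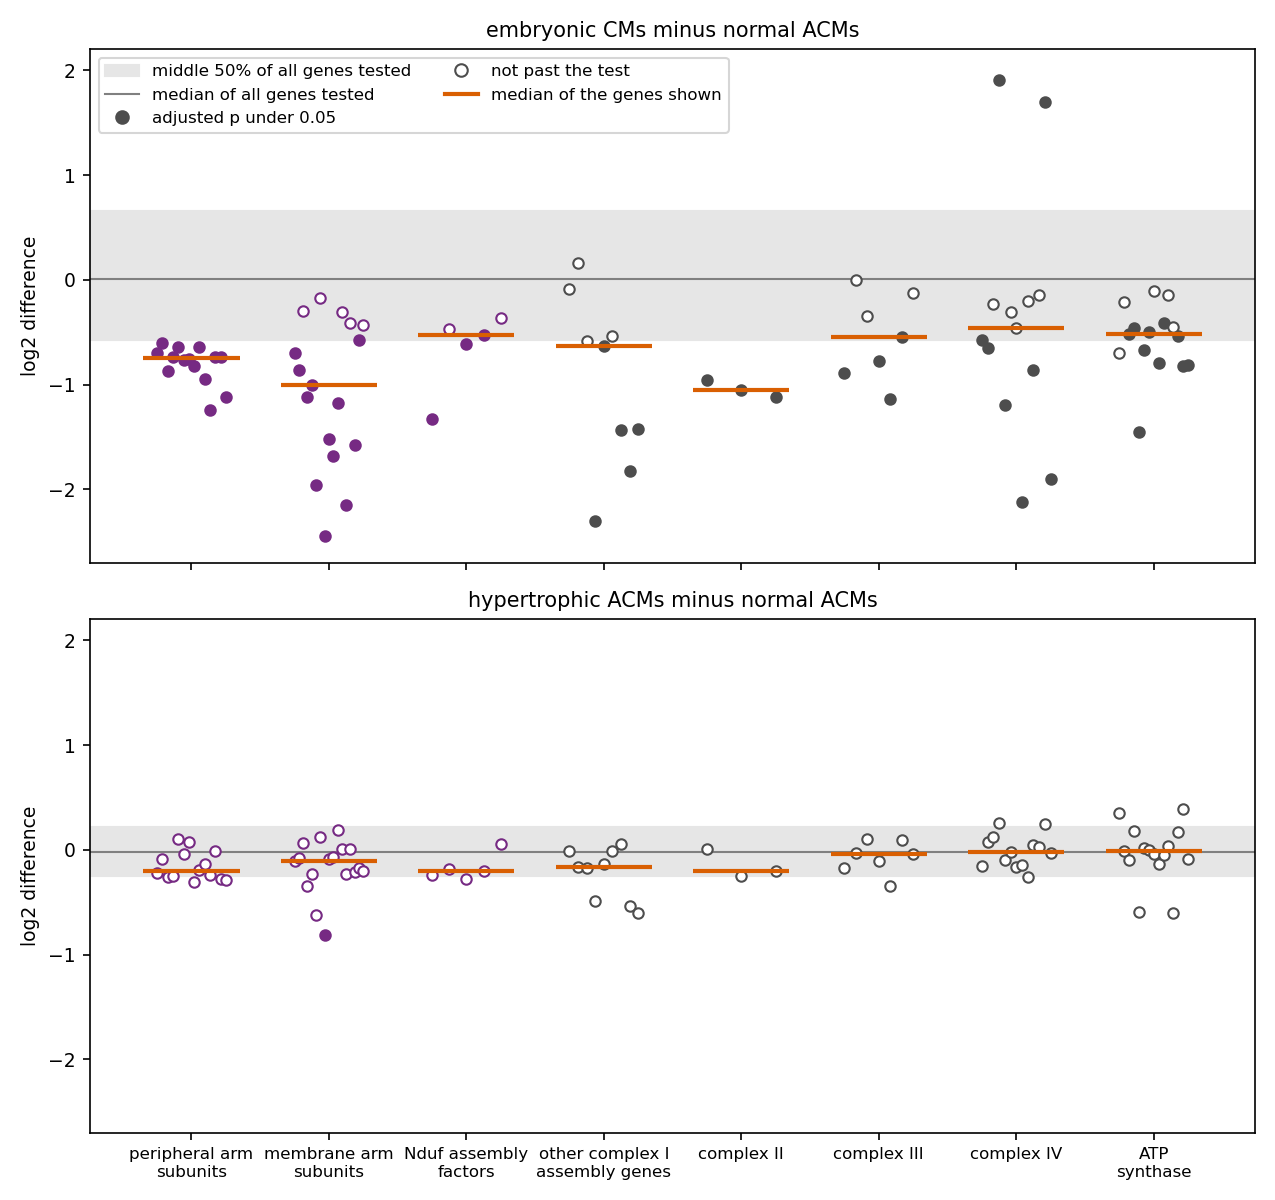
Log2 differences of complex I subunits by arm, of Nduf assembly factors, of other complex I assembly genes and of complexes II to V, for embryonic CMs minus normal ACMs above and hypertrophic ACMs minus normal ACMs below. Points are genes, filled where the adjusted p was under 0.05, orange lines are medians, and the grey band and line are the middle 50% and the median of all genes tested. In the upper panel all 14 peripheral arm subunits are filled and below 0, and 2 complex IV genes lie above 0.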

How the data were processed

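RNA of 2 embryonic CM, 3 hypertrophic ACM and 3 normal ACM samples was measured on Illumina BeadChips. The first table of the authors gives each probe's mean bead intensity as GenomeStudio extracted it, with no normalization (version 2011 in the submitters' processing notes, 2.0 in the series text). It also holds the deposited detection p-value of every probe, computed against the negative-control beads. Intensity values normalized by the authors, in another table, served as an alternative.

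Intensities were background-corrected from the detection p-values and quantile-normalized on the log2 scale with neqc (offset 16) in limma 3.58.1 and R 4.3.3. Of 25697 probes, 23978 had 1 gene symbol and 1719 had none and were left out, which named 16593 genes. Probes detected (p under 0.05) on 2 or more of 8 arrays were kept, and the brightest kept probe stood for its gene (9803 genes). Of 53 Nduf probes, 50 were kept. The 3 groups entered 1 linear model (lmFit, contrasts.fit and eBayes) with Benjamini-Hochberg adjustment over the 9803 genes. Intervals are 95% intervals of that fit. Normalization and fit were also run on simulated arrays drawn from the normal ACM means, with known changes in genes detected on all arrays. That simulation built in no group difference in the share of detected probes, so it cannot test normalization under such a difference. Figures were drawn with matplotlib 3.10.9 and pandas 2.3.3 in Python 3.11.15.

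Alternatives were no background correction, normexp on all probes (offset 50), scaling each array to its median, the authors' normalized values, detection on all 8 arrays, no detection filter, the mean of kept probes, a variance trend, weights per array, fitting only the 2 groups compared, a block for the replicate number, leaving out each array in turn and, chosen after seeing the data, the dimmest probe detected on all arrays. Named with values were all assembly factors, core subunits and Ndufa4, the 4 lowest and 4 highest differences of each comparison with normal ACMs, members past the test in hypertrophic ACMs and members whose probes disagreed. Ndufs4, Ndufs6, Ndufs5-ps, Ndufb8 and Ndufc2 were named beyond that rule, after their values were seen. The members and lists were chosen with earlier results of these data known. Gene and promoter coordinates are those of RefSeq on GRCm38.p6, in which all 39 members matched a gene.

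The number of arrays limits the precision. Array medians were 105.5 and 106.7 intensity units in embryonic CMs, 92.3 to 99.9 in hypertrophic ACMs and 95.8 to 99 in normal ACMs. The share of probes with a detection p under 0.05 also split by group. It was 51.6% on both embryonic arrays, 45.8% to 46.3% in hypertrophic ACMs and 41.9% to 44.0% in normal ACMs. Which chip held which array was not known, so no chip effect was modelled. Genes on chromosome 18 were left out of the promoter counts. Motif letters were shortened to their cores after a first search with longer forms.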

Additional observations from a re-analysis of the deposited data

How the results depend on the processing

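Every member tested stayed below 0 in embryonic CMs against normal ACMs under each alternative run over all 8 arrays except scaling to the array median (34 of 39), and 24 to 34 passed as lower, the fewest without embryonic array 2 (26 without embryonic array 1). The alternatives other than median scaling and the authors' normalized values kept quantile normalization, so agreement among them cannot test that step. With median scaling 27 of 39 were lower. That scaling moved the median of all genes to 0.52 against normal ACMs, so that the members' median of -0.71 was 1.23 below it, and turned Ndufab1 to 0.12, Ndufaf3 to 0.14, Ndufaf5 to 0.21, Ndufb11 to 0.38 and Ndufaf7 to 0.49. Without 1 array, Ndufb11 ranged from -0.50 to 0.16 in this comparison. The median of subunits minus that of assembly factors was -0.88 with median scaling against normal ACMs and -0.83 against hypertrophic ACMs. Against hypertrophic ACMs it ranged from -0.49 to -0.22 without 1 array. In hypertrophic against normal ACMs it was 0.024, and it turned to -0.006 with median scaling and -0.042 without hypertrophic ACM array 3. With no background correction, normexp, the authors' normalized values, no detection filter, the mean of kept probes or a variance trend, 29 subunits were lower in embryonic CMs against normal ACMs. The single lower call in hypertrophic against normal ACMs became 0 with median scaling, with the authors' normalized values and with only the 2 groups compared, and ranged from 0 to 1 without 1 array. In that comparison, without 1 array, Ndufs3 ranged from -0.029 to 0.14, Ndufb5 from -0.058 to 0.43 and Ndufb11 from -0.19 to 0.48. Without 1 array, 17 to 26 members were lower in embryonic CMs than in hypertrophic ACMs, the fewest without embryonic array 1. Other assembly genes and complexes II to V gave 15 to 28 lower genes without 1 array. Deviations of same-numbered arrays from their group means had correlations from -0.10 to 0.13. With 2 or 3 arrays a group and no other pairs computed, these values cannot decide if the numbers pair the samples. With the replicate number as a block, 32 members were lower in embryonic CMs against normal ACMs, 22 against hypertrophic ACMs, and 1 was lower in hypertrophic ACMs, and Ndufaf3 was added at -0.71 (adjusted p = 0.0303, limma). The cause of these changes was not tested. A chip effect was not run. Members near background, Ndufb11, Ndufab1 and Ndufaf3, had the widest intervals along with Ndufb4 and Ndufb5.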
